A study of Mus musculus with 36 samples.

Results

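The 10 genes described here encode enzymes that make or break down sphingomyelin and ceramide in mouse liver. They were chosen as a list by gene name, and all 10 were among the 13862 genes of the RNA-seq table. Smpd3 was put on the list because its RNA had one of the smallest adjusted p values for a difference between 2 mouse strains in the response to phenobarbital (PB), and the other 9 genes were added to see whether the pathway moved with it. The RNA values of Smpd3 are therefore given as a description without a test, whereas the other 9 genes and the open chromatin near all 10 genes were tested.

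Livers of 18 male mice were profiled by both RNA-seq and DNase-seq. The C57BL/6 strain is an inbred mouse, and B6C3F1 mice are hybrids of a C57BL/6 mother and a C3H/He father. In each strain, 4 mice received vehicle and 5 drank water holding 0.05% (wt/vol) PB for 91 d, and a mouse is named by the digit that ends its animal number. The C57BL/6 mice came from Taconic and were 9 to 11 wk old on arrival, whereas the B6C3F1 mice came from Charles River at 4 to 5 wk. The PB was from Hänseler for C57BL/6 and from Sigma-Aldrich for B6C3F1. Strain therefore cannot be told apart from age, supplier, source of PB and study. Whole liver was used, in which fewer cells of a type and less RNA per cell cannot be told apart.

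Sphingomyelin is a membrane lipid, and ceramide is the building block from which it is made. Sphingomyelinases cut sphingomyelin to ceramide, sphingomyelin synthases run the reverse step, and ceramidases take ceramide further to sphingosine. Ceramide is built de novo from serine and palmitoyl-CoA in a chain of reactions that starts with serine palmitoyltransferase and ends with ceramide synthases and a desaturase. The liver makes ceramides for lipoproteins and bile as well as for its own membranes. PB activates the nuclear receptor CAR in hepatocytes, which raises drug-metabolizing enzymes such as Cyp2b10.

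RNA libraries held 23.8 to 30.3 M reads in genes, where 1 M is 1000000 reads, and DNase-seq libraries held 7.01 to 58.1 M reads in regions, the fewest in vehicle-treated B6C3F1 mouse 3. Cyp2b10, the usual target of CAR, was at 5.51 to 16.7 CPM in vehicle-treated mice and at 897 to 1737 CPM in PB-treated mice. CPM are reads per 1000000 reads counted, after the authors' scaling. The treatment labels were thus borne out in all 18 RNA libraries, and those of the DNase-seq libraries were not checked in this way. All 6 hepatocyte markers were measured and summed to 64562 to 87442 CPM per mouse. The 5 measured of 6 biliary markers summed to 33.5 to 49.9 CPM and the 2 measured of 6 lymphocyte markers to 11.9 to 31.9 CPM, with Cftr, Cd3e, Cd79a, Nkg7 and Cd8a lacking a value. Some marker sums moved with the groups. The hepatocyte sum was lower in PB-treated B6C3F1 mice (64898 to 79689 CPM) than in vehicle-treated ones (81458 to 87442 CPM). In C57BL/6 it averaged 77925 CPM with vehicle and 68498 CPM with PB, with overlap. The sum of 6 stellate cell and fibroblast markers averaged 440 CPM with vehicle and 383 CPM with PB in C57BL/6, and 449 and 376 CPM in B6C3F1, with overlap in both strains. The 6 Kupffer cell and macrophage markers summed to 176 to 226 CPM in the 9 B6C3F1 mice and to 215 to 390 CPM in the 9 C57BL/6 mice. The lymphocyte sum did not overlap between the strains, with all 9 B6C3F1 mice (from 11.9 CPM) below the lowest C57BL/6 mouse (17.0 CPM). Taken gene by gene at the cutoffs given below, 0 hepatocyte and 0 stellate cell and fibroblast markers were called with PB in either strain. Of all genes, 2.00% were called with PB in B6C3F1 and 0.874% in C57BL/6. Between the strains, 1 lymphocyte marker was called with vehicle and 1 hepatocyte marker with PB, where 3.63% and 5.25% of all genes were called. What part the differences in marker sums play in the values below was not tested.

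Per length of transcript, the 10 enzymes spanned a wide range in vehicle-treated C57BL/6 liver. Cers2, which makes the very-long-chain ceramides typical of liver, was highest at 153 ± 8.24 CPM per kb (SD, n = 4), followed by the dihydroceramide desaturase Degs1 at 44.7 ± 2.09. Acid ceramidase Asah1 (19.4 ± 1.90) and the plasma membrane sphingomyelin synthase Sgms2 (16.7 ± 0.81) came next with acid sphingomyelinase Smpd1 between them, and neighbours among these 3 overlapped between mice. The neutral sphingomyelinase Smpd2 was at 11.3 ± 0.59, the serine palmitoyltransferase subunit Sptlc2 at 5.30 ± 0.19, the Golgi sphingomyelin synthase Sgms1 at 4.38 ± 0.42 and the ceramide synthase Cers6 at 2.55 ± 0.18 CPM per kb. Smpd3 was the lowest of all at 0.57 ± 0.03 CPM per kb, with no overlap with Cers6. In vehicle-treated B6C3F1 mice Smpd3 was again lowest, at 0.44 ± 0.10 CPM per kb. In PB-treated mice its level was 2.93 ± 0.17 CPM per kb in C57BL/6 (SD, n = 5), where its mice overlapped those of Cers6, and 5.70 ± 1.19 in B6C3F1, where it stood between Sptlc2 and Sgms1 and overlapped both.

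**Figure D1:**
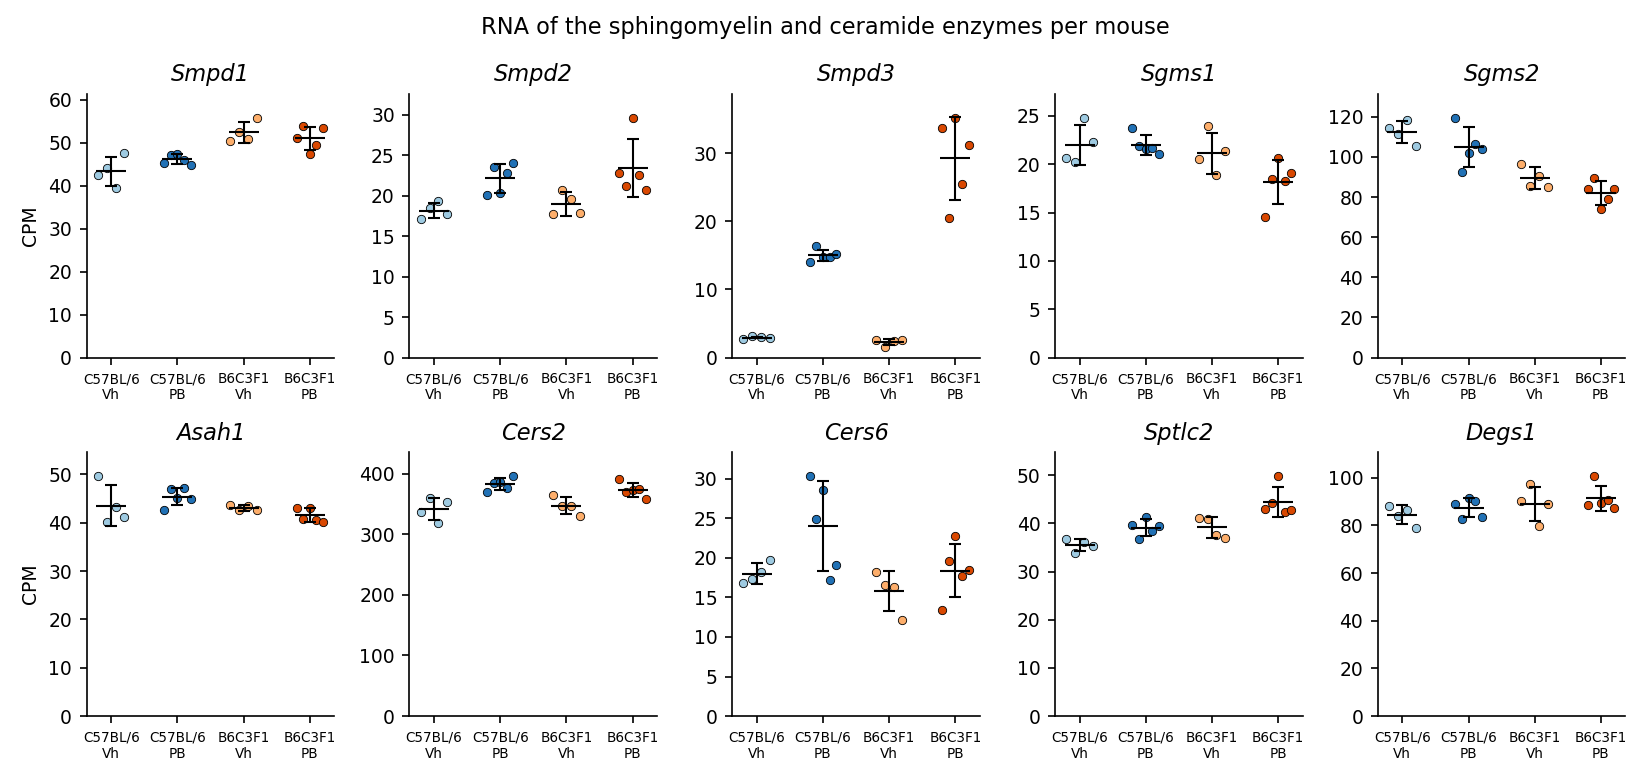
RNA of each of the 10 genes in CPM (y axis, from 0, a separate scale for each gene) in the 4 groups of mice, vehicle (Vh) and PB in each strain. Each point is 1 mouse, the horizontal line is the group mean and the bar the SD. Smpd3 separates PB from vehicle in both strains, at 14.1 to 16.3 CPM in C57BL/6 and 20.5 to 35.2 CPM in B6C3F1 against 1.54 to 3.11 CPM without PB.

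Smpd3 encodes neutral sphingomyelinase of the plasma membrane and Golgi, an enzyme known for its part in exosome release and in ceramide signalling. The gene lies on the minus strand at chr8:106252548-106337965 (GRCm38, the same coordinates as mm10). In vehicle-treated C57BL/6 mice 1, 2, 3 and 5 its RNA was at 2.78, 3.11, 2.98 and 2.89 CPM, and in PB-treated mice 1 to 5 at 14.1, 16.3, 14.7, 14.7 and 15.1 CPM. In vehicle-treated B6C3F1 mice 1, 2, 3 and 5 it was at 2.51, 1.54, 2.43 and 2.60 CPM, and in PB-treated mice 1 to 5 at 33.7, 20.5, 35.2, 25.5 and 31.2 CPM. The PB-treated mice of each strain were all above the vehicle-treated mice, and the lowest PB-treated B6C3F1 mouse was above the highest C57BL/6 one. These values rest on 46 to 82 reads per vehicle-treated mouse and 364 to 979 reads per PB-treated mouse.

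On the log2(CPM + 0.1) scale Smpd3 RNA was higher with PB by 3.63 (SE 0.14, a 12.4-fold change) in B6C3F1 and by 2.31 (SE 0.14, 4.96-fold) in C57BL/6. The difference between the strains in this response was 1.32 (SE 0.20), and it ranked first by p among the 13838 genes tested, which is what selected the gene. Vehicle-treated B6C3F1 mice were 0.38 lower (SE 0.15) than vehicle-treated C57BL/6 mice. That baseline difference depended on vehicle-treated B6C3F1 mouse 2, without which it was -0.22, while the response in B6C3F1 without this mouse was still 3.46. Ordered from the highest log2 FC, Smpd3 ranked 24th among all genes in B6C3F1 and 33rd in C57BL/6.

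The sphingomyelinases other than Smpd3 did not reach the cutoffs for a call, an FDR of at most 0.01 with an absolute log2 FC of at least 0.58, in either strain. Smpd1 (chr7:105554360-105558389, plus strand), the lysosomal enzyme whose loss causes Niemann-Pick disease, was at 43.4 ± 3.37 CPM with vehicle (SD, n = 4) and 46.2 ± 1.14 CPM with PB (SD, n = 5) in C57BL/6, and at 52.5 ± 2.44 and 51.1 ± 2.69 CPM in B6C3F1. Its log2 FC was 0.09 in C57BL/6 (95% interval -0.02 to 0.21) and -0.04 in B6C3F1 (-0.15 to 0.07). Smpd2 (chr10:41487172-41490370, minus strand), at 18.1 ± 0.94 and 22.1 ± 1.83 CPM in C57BL/6 and 19.0 ± 1.44 and 23.4 ± 3.61 CPM in B6C3F1, did not overlap between PB and vehicle in either strain. Its log2 FC of 0.28 in C57BL/6 (interval 0.10 to 0.47, FDR 0.107 by limma) and 0.29 in B6C3F1 (0.11 to 0.48, FDR 0.0402) stayed below these cutoffs. The FDR is the p of a test adjusted by Benjamini-Hochberg over all genes or regions tested.

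The sphingomyelin synthases were not called with PB in either strain. Sgms1 (chr19:32122727-32389885, minus strand) was at 22.0 ± 2.10 CPM with vehicle and 22.0 ± 1.05 CPM with PB in C57BL/6, a log2 FC of 0.00 (interval -0.18 to 0.19) whose sign changed with the scaling. In B6C3F1 it was at 21.1 ± 2.11 and 18.2 ± 2.26 CPM, a log2 FC of -0.22 (-0.40 to -0.04, FDR 0.126 by limma). Sgms2 (chr3:131318985-131491443, minus strand) was at 112 ± 5.45 and 105 ± 9.80 CPM in C57BL/6 and at 89.5 ± 5.37 and 82.0 ± 5.81 CPM in B6C3F1, with a log2 FC of -0.10 (-0.24 to 0.03) and -0.13 (-0.26 to 0.01). The groups of both genes overlapped in both strains.

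The genes of ceramide breakdown and of ceramide synthases were not called either. Asah1 (chr8:41340646-41397644, minus strand), which hydrolyses ceramide in lysosomes, was at 43.5 ± 4.28 and 45.3 ± 1.78 CPM in C57BL/6 and at 43.1 ± 0.59 and 41.6 ± 1.41 CPM in B6C3F1. Cers2 (chr3:95314771-95323599, plus strand) was at 342 ± 18.4 and 383 ± 10.2 CPM in C57BL/6, where the groups did not overlap, a log2 FC of 0.16 (interval 0.07 to 0.26, FDR 0.0481 by limma). In B6C3F1 Cers2 was at 347 ± 14.1 and 373 ± 11.8 CPM, a log2 FC of 0.11 (0.01 to 0.20). Cers6 (chr2:68861145-69114284, plus strand), which makes ceramides with shorter acyl chains, varied widely among PB-treated C57BL/6 mice, at 30.3, 24.9, 28.6, 17.2 and 19.2 CPM in mice 1 to 5 against 16.8, 17.3, 18.2 and 19.7 CPM with vehicle. Its log2 FC of 0.38 there had an interval of 0.02 to 0.74 (FDR 0.356 by limma), which reaches past the cutoff, and in B6C3F1 it was 0.21 (-0.15 to 0.57).

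The same held for the first step of de novo synthesis and for the desaturase. Sptlc2 (chr12:87305058-87388355, minus strand) was at 35.6 ± 1.24 and 39.1 ± 1.69 CPM in C57BL/6 (log2 FC 0.14, interval 0.02 to 0.25). In B6C3F1 Sptlc2 was at 39.2 ± 2.16 and 44.5 ± 3.10 CPM without overlap (log2 FC 0.18, 0.07 to 0.30, FDR 0.0427 by limma). Degs1 (chr1:182275964-182282854, minus strand) was at 84.4 ± 3.95 and 87.4 ± 4.03 CPM in C57BL/6 and at 89.1 ± 7.15 and 91.3 ± 5.37 CPM in B6C3F1, with intervals of -0.07 to 0.17 and -0.08 to 0.16.

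**Figure D2:**
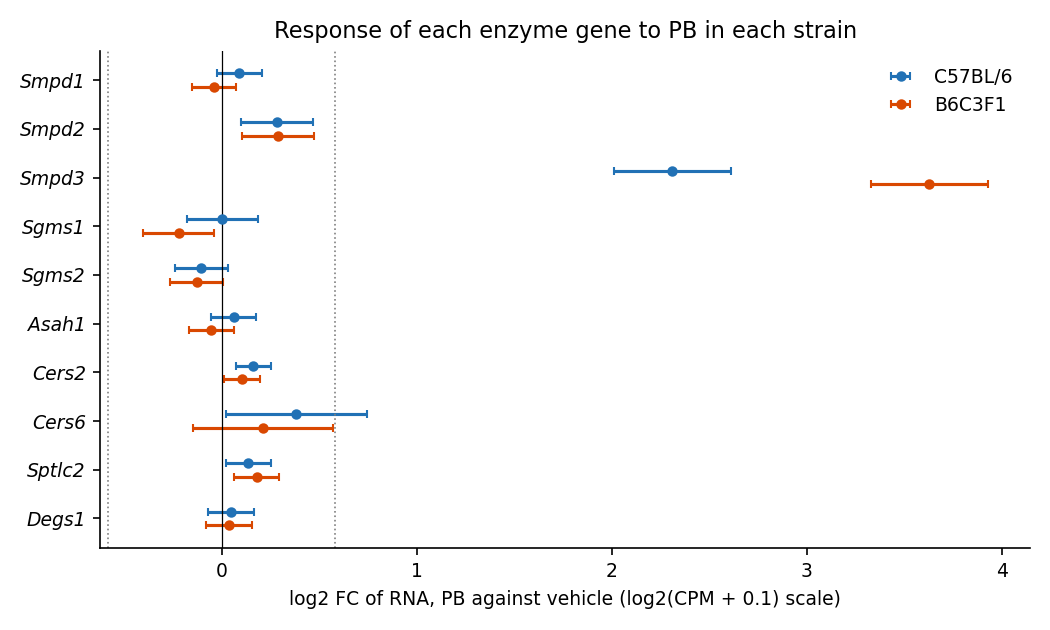
Log2 FC of RNA between PB-treated and vehicle-treated mice on the log2(CPM + 0.1) scale (x axis) for each gene (rows) in C57BL/6 (blue) and B6C3F1 (orange), with bars for the 95% interval from the fit. Dotted lines mark a log2 FC of -0.58 and 0.58, and of the 10 genes only Smpd3, at 2.31 and 3.63, lies beyond them.

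Counted over the 9 genes other than Smpd3, limma called 0 of 9 for PB in B6C3F1, where 2.00% of all 13838 genes were called, and 0 of 9 in C57BL/6, where 0.874% were called. At an unadjusted p under 0.05 there were 4 of 9 in each strain, against 23.4% and 12.4% of all genes. The median log2 FC of the 9 was 0.04 in B6C3F1 and 0.09 in C57BL/6, beside -0.01 for all genes in both strains. For the strain difference in the PB response, limma called 0 of 9 and 0% of all genes, with 0 of 9 at an unadjusted p under 0.05. The estimates for the 9 ran from -0.22 for Sgms1 (interval -0.48 to 0.04) to 0.04 for Sptlc2 (-0.12 to 0.21). The interval was widest for Cers6, whose estimate of -0.17 (-0.68 to 0.34) leaves a difference past the fold cutoff unresolved. edgeR's quasi-likelihood test on the reads also called 0 of 9 in each of these comparisons. At these shares of all genes, a count of 0 does not set the 9 apart.

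Between the strains the estimates for the 9 genes were short of the fold cutoff. The interval of Cers6 in PB-treated mice reached past it, at -0.71 to -0.03 around a log2 FC of -0.37 (FDR 0.0941 by limma). In vehicle-treated mice limma called 0 of 9 with 3.63% of all genes called, and in PB-treated mice 0 of 9 with 5.25% called. At an unadjusted p under 0.05 there were 3 and 6 of 9, against 33.1% and 39.9% of all genes, and edgeR called 0 in both. Sgms2 RNA was lower in B6C3F1 by 0.33 on the log2 scale with vehicle (FDR 0.0019 by limma) and 0.35 with PB (FDR 0.000224), with an FDR below the cutoff but a log2 FC short of it. Smpd1 RNA was higher in vehicle-treated B6C3F1 mice by 0.27 (FDR 0.00198 by limma) and in PB-treated ones by 0.14 (FDR 0.0409).

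The wider pathway was represented by 58 further genes of sphingolipid metabolism, of which 49 had a value and were tested. PB changed 1 of the 49 in B6C3F1 and 0 of 49 in C57BL/6 at the cutoffs of limma, where 2.00% and 0.874% of all genes were called, and edgeR gave the same counts of 1 and 0. At an unadjusted p under 0.05 there were 13 and 8 of 49, against 23.4% and 12.4% of all genes, so the list did not stand out by its counts. The gene called was Sgpl1, the lyase that ends the pathway by cleaving sphingosine 1-phosphate. Sgpl1 rose in B6C3F1 from 130.4 ± 11.6 CPM to 222 ± 19.4 CPM, a log2 FC of 0.77 (SE 0.07, FDR 1.2e-07 by limma). In C57BL/6 its RNA was at 143 ± 9.39 CPM with vehicle and 196 ± 14.1 CPM with PB without overlap, and its log2 FC of 0.45 (SE 0.07, FDR 0.000242 by limma) was short of the cutoff. The strain difference in the response of Sgpl1 was 0.31 (interval 0.11 to 0.52, FDR 0.391 by limma).

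Below the fold cutoff, a few genes of the list passed the FDR alone. In B6C3F1 these included the alkaline ceramidase Acer3 (log2 FC 0.28, FDR 0.00706 by limma), and Ormdl3 (0.28, FDR 0.000231) and Ormdl1 (-0.29, FDR 0.00856), which restrain serine palmitoyltransferase. In C57BL/6 it was Ormdl3 beside Sgpl1, at 0.22 (FDR 0.00429 by limma). The median log2 FC over the 49 genes was -0.04 in B6C3F1 and 0.04 in C57BL/6. For the strain difference in the PB response limma called 0 of 49, with 4 of 49 at an unadjusted p under 0.05 (7.90% of all genes), and edgeR called 0.

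**Figure D3:**
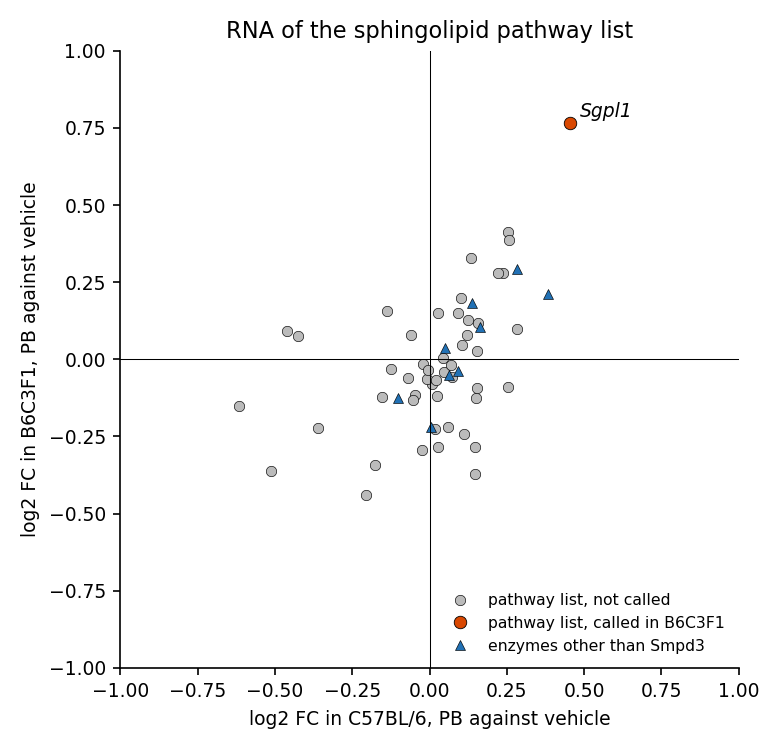
Log2 FC of RNA with PB in C57BL/6 (x axis) and in B6C3F1 (y axis), on the log2(CPM + 0.1) scale, for the 49 genes of the pathway list (circles) and the 9 enzymes other than Smpd3 (triangles). Sgpl1, at 0.45 and 0.77, is the one point called in B6C3F1, and the other circles lie between -0.62 and 0.41 on both axes.

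Between B6C3F1 and C57BL/6, limma called 1 of the 49 pathway genes in vehicle-treated mice, where 3.63% of all genes were called, and 3 of 49 in PB-treated mice, where 5.25% were called, shares near those of all genes. The transfer protein Cptp, which carries ceramide 1-phosphate, was at 17.1 ± 0.65 CPM in vehicle-treated C57BL/6 mice and 26.1 ± 1.44 CPM in vehicle-treated B6C3F1 mice (log2 FC 0.61, FDR 1.01e-06 by limma). Acer3 was at 34.9 ± 1.83 CPM in PB-treated C57BL/6 and 53.4 ± 2.11 CPM in PB-treated B6C3F1 mice (0.61, FDR 2.12e-07). Of the lactosylceramide synthases, B4galt5 was higher in PB-treated B6C3F1 mice (0.88, FDR 0.0014 by limma) and B4galt6 lower (-0.62, FDR 0.00411). In the other treatment these genes were not called, but their estimates had the same sign. Cptp was at 0.57 with PB (FDR 2.8e-07 by limma). With vehicle, Acer3 was at 0.57 (FDR 4.59e-06), B4galt5 at 0.59 (FDR 0.043) and B4galt6 at -0.19 (FDR 0.458). The calls near the fold cutoff depended on the scaling, since after centring on the sample median Cptp was not called and quantile normalization left 1 of the 3 calls in PB-treated mice. Without C57BL/6 mouse 1 or 3 or B6C3F1 mouse 2, the count in vehicle-treated mice was 2.

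Likeness to the RNA of Smpd3 over the 18 mice was measured as the root mean square difference between profiles of log2(CPM + 0.1) that were set to mean 0 and SD 1 for each gene, where 0 is identical. The 5 closest of the 13838 genes were Cyp2c66 (0.19), Lect1 (0.21), Wisp1 (0.25), Cyp2c54 (0.25) and Adamtsl1 (0.26), beside a median of 1.43 over all genes. Cyp2c54, an abundant liver cytochrome P450, was at 357 ± 45.2 and 1603 ± 191 CPM in C57BL/6 and at 309.7 ± 75.3 and 2004 ± 208 CPM in B6C3F1. Cyp2c66 was near 0 in all vehicle-treated mice and at 11.5 ± 4.42 CPM in PB-treated C57BL/6 and 27.7 ± 4.03 CPM in PB-treated B6C3F1 mice. Wisp1, a secreted matrix protein, was at 13.3 ± 3.39 CPM in PB-treated C57BL/6 and 22.2 ± 7.39 CPM in PB-treated B6C3F1 mice. Of the other 9 enzymes the closest were Smpd2 (0.70, rank 329 of the 13838 genes), Cers2 (0.74, rank 382) and Sptlc2 (0.83, rank 590), and the farthest was Sgms1 (1.71, rank 12491).

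DNase-seq reads out how open the chromatin is, since DNase I cuts where DNA is accessible, and a DNase I hypersensitive site (DHS) is a region with many such cuts. Of the 98170 DHSs, 104 had a start site of one of the 10 genes as the nearest one within 100 kb. They were spread unevenly, with 47 at Sgms1, 18 at Sgms2, 10 at Smpd3, 9 at Cers6, 6 at Cers2, 5 at Degs1, 4 at Sptlc2, 2 each at Smpd2 and Asah1, and 1 at Smpd1. Values are normalized counts, of which log2 was taken after adding 1 for each log2 FC of a DHS.

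With PB in B6C3F1, limma called 2 of the 104 DHSs, both higher and both in Smpd3, where 0.190% of all DHSs were called. In C57BL/6 it called 3 of 104, again all higher and all in Smpd3, where 0.367% were called. Of the 94 DHSs of the other 9 genes, 0 were called in either strain, with 8 and 6 of 94 at an unadjusted p under 0.05 (9.16% and 7.76% of all DHSs) and a smallest FDR of 0.305 in B6C3F1 and 0.363 in C57BL/6. edgeR's quasi-likelihood test called 2 and 4 DHSs of the 10 genes. The counts depended on the fit, since with all 4 groups of mice sharing one spread 4 were called in B6C3F1 and 0 in C57BL/6, and without PB-treated mouse 4 it was 5 in C57BL/6.

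All 10 DHSs of Smpd3 had a positive log2 FC in both strains, with a median of 0.88 in B6C3F1 and 0.53 in C57BL/6, beside -0.01 and 0.00 over all DHSs. In 5 of the 10 in B6C3F1 and 7 of the 10 in C57BL/6, every PB-treated mouse was above every vehicle-treated one, which held for 1.89% and 1.74% of all DHSs. Among the 94 DHSs of the other genes there were 0 in either strain, which at these shares does not set them apart. In 2 of the 94 in each strain, every PB-treated mouse was below every vehicle-treated one. The share of all DHSs with that pattern was not counted. The changed sites lay inside the gene and not at its curated start. A predicted start of shorter transcripts lies close to the first DHS called in C57BL/6, described below. The DHS over the curated start, chr8:106337863-106338435, had a log2 FC of 0.19 in B6C3F1 (interval -0.03 to 0.42, FDR 0.621 by limma) and 0.03 in C57BL/6 (-0.15 to 0.21, FDR 0.978). Its mean normalized count was 575 ± 12.1 with vehicle and 588 ± 43.8 with PB in C57BL/6, and 496 ± 33.9 and 568 ± 43.9 in B6C3F1.

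**Figure D4:**
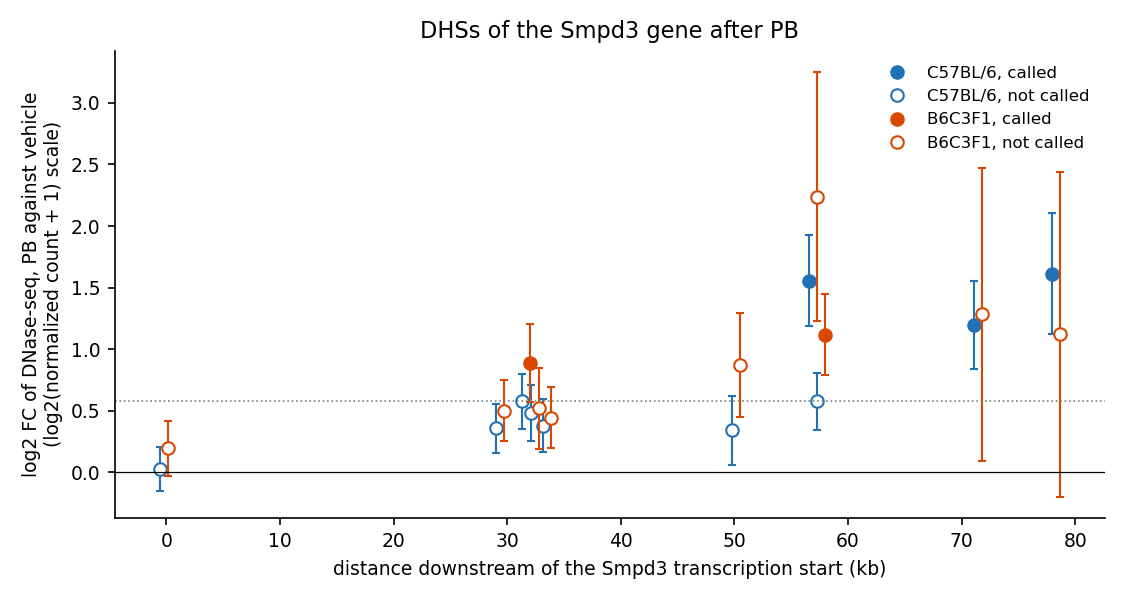
Log2 FC of DNase-seq between PB-treated and vehicle-treated mice (y axis, log2(normalized count + 1) scale) for the 10 DHSs of Smpd3 against distance downstream of its transcription start in kb (x axis), in C57BL/6 (blue) and B6C3F1 (orange), with the strains drawn slightly apart. Bars are 95% intervals, filled points passed the cutoffs and the dotted line marks 0.58. The point at the curated start is near 0 in both strains, and the others lie above 0, at up to 2.24 in B6C3F1 and 1.61 in C57BL/6.

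The DHS called in B6C3F1 with the smallest FDR was chr8:106280143-106280601, in an intron 57.6 kb downstream of the curated start. It lies within 10 kb of the predicted start of shorter transcripts. Vehicle-treated B6C3F1 mice 1, 2, 3 and 5 had normalized counts of 205, 167, 277 and 173, and PB-treated mice 1 to 5 had 451, 352, 473, 449 and 478. The groups did not overlap, and the log2 FC was 1.12 (SE 0.16, FDR 0.00134 by limma). In C57BL/6 it was at 345, 308, 291 and 336 with vehicle and at 485, 500.1, 503, 363 and 552 with PB, also without overlap. The log2 FC there was 0.58 (SE 0.11, FDR 0.00897 by limma), just short of the fold cutoff before rounding, and it passed in edgeR and after quantile normalization.

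The other DHS called in B6C3F1 was chr8:106306184-106306472, in an intron 31.6 kb downstream. It was at 215, 214, 339 and 302 in vehicle-treated and at 409.7, 459.6, 508, 544 and 522 in PB-treated B6C3F1 mice, a log2 FC of 0.89 (SE 0.15, FDR 0.00711 by limma). In C57BL/6 it was at 338, 312, 372 and 260.4 with vehicle and at 469, 545, 464, 434 and 465 with PB, a log2 FC of 0.58 (SE 0.11, FDR 0.00629 by limma) that also fell just short of the fold cutoff. The groups did not overlap in either strain. The call in B6C3F1 was lost without any one of 7 of the 9 mice, namely vehicle-treated mice 1, 2 and 5 and PB-treated mice 1, 2, 3 and 4, with a log2 FC of 0.79 to 0.96 in those fits.

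The 2 windows of 300 bp centred on these intronic sites are printed because they were the DHSs of the 10 genes that passed in B6C3F1. Both are the plus strand of GRCm38 from RefSeq, the strand opposite to the gene, and capitals mark the nuclear receptor half-sites AGGTCA or AGTTCA on either strand.
chr8:106280223-106280522: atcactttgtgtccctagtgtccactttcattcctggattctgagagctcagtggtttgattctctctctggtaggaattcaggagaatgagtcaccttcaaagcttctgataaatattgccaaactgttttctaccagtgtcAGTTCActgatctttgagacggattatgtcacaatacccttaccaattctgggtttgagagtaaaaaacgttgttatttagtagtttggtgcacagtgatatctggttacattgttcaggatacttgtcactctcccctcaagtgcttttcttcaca
chr8:106306179-106306478: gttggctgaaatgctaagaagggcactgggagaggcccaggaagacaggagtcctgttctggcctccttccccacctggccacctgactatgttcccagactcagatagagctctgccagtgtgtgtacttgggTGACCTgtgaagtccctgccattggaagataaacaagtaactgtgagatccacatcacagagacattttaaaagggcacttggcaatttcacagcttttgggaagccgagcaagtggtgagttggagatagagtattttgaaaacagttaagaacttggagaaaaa
Receptors such as CAR bind best to a pair of such half-sites in the same direction with 4 bases between them. Such a pair, made of AGGTCA or AGTTCA at each place and searched on both strands, was in 0.111% of the windows of all 98170 DHSs and in 0 of the 10 windows of Smpd3. The single half-site AGGTCA was in 1 of the 10 windows and in 28.1% of all windows, and AGTTCA was in 2 of the 10 and in 22.8% of all. The half-sites are part of the pair and were counted with it.

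The 3 DHSs called in C57BL/6 were others, which lay 56.9 to 78.3 kb into the gene. The first, chr8:106280894-106281166, lies in an intron 56.9 kb downstream of the curated start and 525 bp downstream of a predicted start of shorter Smpd3 transcripts. It was at 51.9, 41.3, 48.4 and 41.6 in vehicle-treated and 133, 149, 101, 129 and 182 in PB-treated C57BL/6 mice (log2 FC 1.56, SE 0.18, FDR 1.32e-05 by limma). In B6C3F1 it was at 15.8, 10.5, 70.1 and 27.0 with vehicle and at 70.7, 88.9, 174, 125 and 158 with PB. The groups were apart there too, but only just, since vehicle-treated mouse 3, the library with the fewest reads, came within 1 normalized count of the lowest PB-treated mouse. The log2 FC of 2.24 (SE 0.47, FDR 0.0656 by limma) was not called, and without mouse 3 it was 2.74 and was called.

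The second, chr8:106266404-106266648 in an intron 71.4 kb downstream, was at 53.0, 47.7, 39.9 and 45.2 in vehicle-treated and at 109, 115, 103, 90.4 and 122 in PB-treated C57BL/6 mice (log2 FC 1.20, SE 0.17, FDR 0.00027 by limma). In B6C3F1 it was at 26.4, 3.51, 59.0 and 23.0 with vehicle and at 42.7, 56.1, 50.7, 43.7 and 53.1 with PB, so that mouse 3 was above all PB-treated mice. The log2 FC was 1.28 with an interval of 0.09 to 2.47 (FDR 0.505). The third, chr8:106259557-106259825, overlaps an exon 78.3 kb downstream and rose in C57BL/6 from 21.0 ± 5.75 to 64.6 ± 8.53 (log2 FC 1.61, SE 0.24, FDR 0.00031 by limma). In B6C3F1 it was at 21.9 ± 14.7 and 35.2 ± 9.32, with overlap and an interval of -0.20 to 2.44. In vehicle-treated B6C3F1 mice these 2 DHSs held 1 to 25 reads each, which leaves their response in that strain unresolved at this depth.

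**Figure D5:**
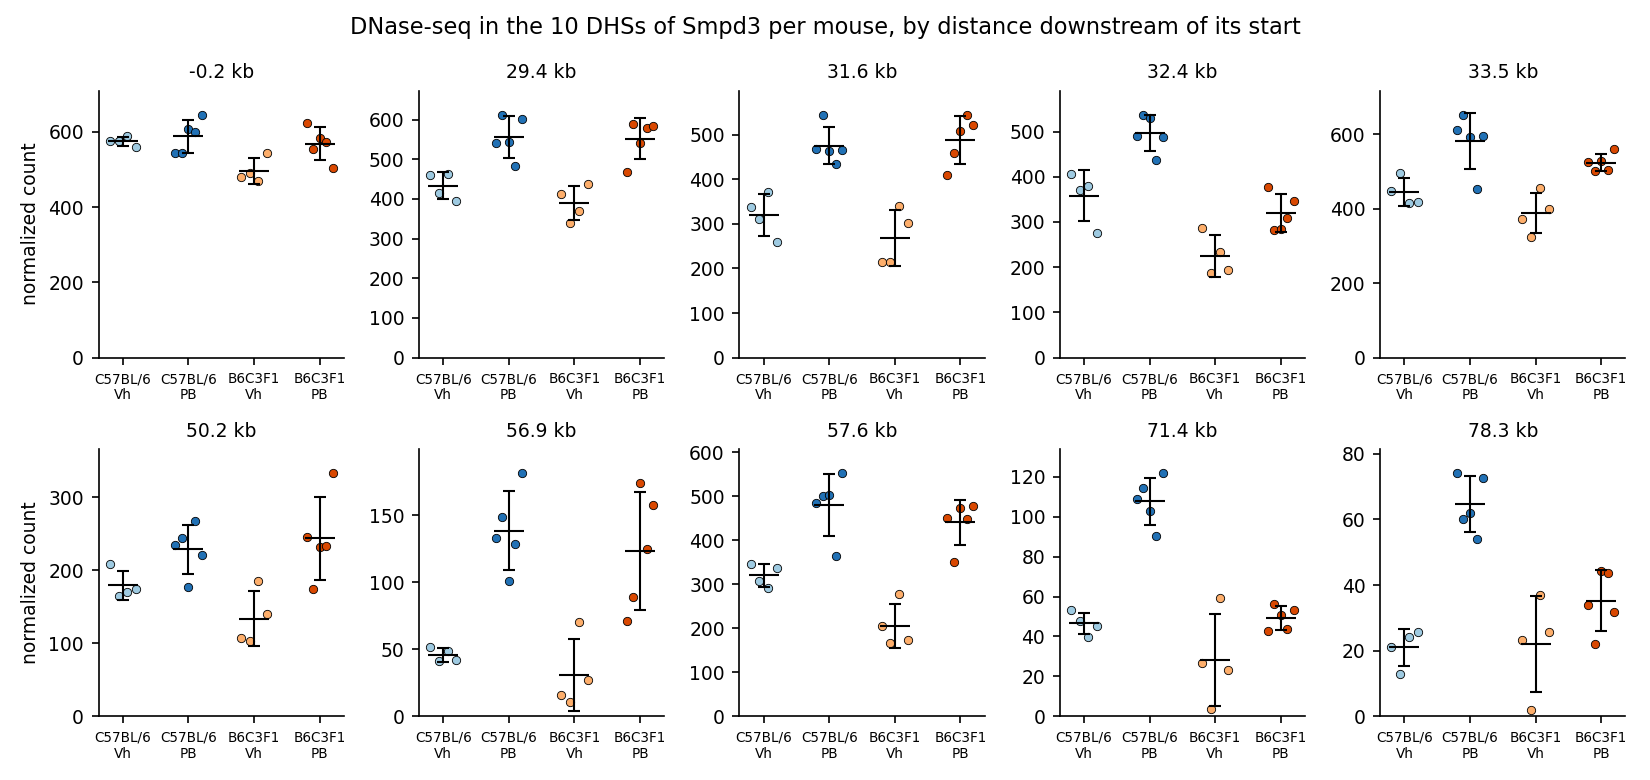
Normalized count (y axis, from 0, a separate scale for each panel) of the 10 DHSs of Smpd3 in the 4 groups of mice, vehicle (Vh) and PB in each strain, ordered by distance downstream of the start in kb. Each point is 1 mouse, the line is the mean and the bar the SD. At -0.2 kb the groups lie side by side in C57BL/6, and at 57.6 kb PB-treated mice are above vehicle-treated mice in both strains.

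The difference between the strains in the response of these DHSs was below what the test could call. Limma called 0 of the 104 DHSs of the 10 genes and 0% of all DHSs, with 7 of 104 at an unadjusted p under 0.05 (5.39% of all DHSs), and edgeR called 0. Among the 10 DHSs of Smpd3 the estimate ran from -0.49 (interval -1.97 to 0.99) to 0.68 (-0.43 to 1.80), with an FDR of at least 0.907. At chr8:106280143-106280601 it was 0.54 (0.14 to 0.95). Of the 10 estimates 9 were positive, and 2 were at an unadjusted p under 0.05 by limma, both with the larger response in B6C3F1. The strain difference of 1.32 in Smpd3 RNA is thus given beside DHS differences whose intervals include 0 for 8 of the 10 DHSs.

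In vehicle-treated mice, Smpd3 had lower DHS estimates in B6C3F1 than in C57BL/6. The log2 FC of its RNA, given as a description and not tested, was -0.38, and -0.22 without vehicle-treated B6C3F1 mouse 2. All 10 DHSs had a negative log2 FC between vehicle-treated B6C3F1 and C57BL/6 mice, beside a median of -0.04 over all DHSs. The share of all DHSs with a negative sign was not counted. Of the 10, 2 were called lower in B6C3F1, chr8:106280143-106280601 (-0.66, FDR 0.00597 by limma) and chr8:106305324-106305709 (-0.68, FDR 0.00557), where 10.5% of all DHSs were called in either direction. Without vehicle-treated C57BL/6 mouse 2, neither was called. In PB-treated mice 8 of the 10 had a negative and 2 a positive log2 FC, and 3 were called lower in B6C3F1, chr8:106259557-106259825 (-0.89, FDR 0.00713 by limma), chr8:106266404-106266648 (-1.11, FDR 0.000123) and chr8:106305324-106305709 (-0.64, FDR 0.000251). Of all DHSs, 9.72% were called in this comparison in either direction. Whether the DHSs of Smpd3 differ from these shares was not tested. Smpd3 RNA in the same PB-treated mice was 0.93 higher (SE 0.14) in B6C3F1. At chr8:106280143-106280601, PB-treated mice of the strains differed by -0.12 (interval -0.37 to 0.13).

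Over the 10 genes together, limma called 6 of 104 DHSs between the strains in vehicle-treated mice, where 10.5% of all DHSs were called, and 8 of 104 in PB-treated mice, where 9.72% were called, so neither share was above that of all DHSs. Beside those of Smpd3, they were 3 in introns or at a start of Sgms1 in each treatment, 1 at the start of Cers2 with vehicle (0.59, FDR 0.00259 by limma), and 1 at the start of Degs1 (0.80, FDR 0.000621) and 1 upstream of Sgms2 (0.98, FDR 0.00959) with PB. The count in vehicle-treated mice rested on single libraries, since it fell to 0 without C57BL/6 mouse 2, to 1 without C57BL/6 mouse 1 or B6C3F1 mouse 2, and to 3 without C57BL/6 mouse 5. In PB-treated mice it fell to 4 without C57BL/6 mouse 2 or 3 and to 5 without C57BL/6 mouse 1 or 5 or B6C3F1 mouse 1 or 2.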

How the data were processed

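RNA-seq and DNase-seq of the same 18 mice were used, grouped by strain and treatment from the sample labels. For RNA-seq, the authors mapped reads with STAR to mm10, counted them by strand over RefSeq genes and deposited CPM signal values after TMM scaling with edgeR. For DNase-seq, the authors aligned reads with Bowtie2, called peaks with MACS2 and deposited a normalized count signal per consensus DHS from DiffBind. For both assays, 100% of values were whole multiples of 1 read, within 0.01, and these reads were used for edgeR.

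Tests used limma 3.58.1 (R 4.3.3) with trend and robust moderation, RNA on log2(CPM + 0.1) over all 18 mice for genes at CPM ≥ 0.4 in at least 3 samples of a group, and DNase on log2(normalized count + 1) over the groups compared (all 18 for the strain difference in response). The study tested RNA with edgeR's quasi-likelihood test and DNase-seq with the edgeR method of DiffBind. Here edgeR's quasi-likelihood test (edgeR 4.0.16) was an alternative for both, because the deposited values are scaled. Calls needed an FDR of at most 0.01 with an absolute log2 FC of at least 0.58. The procedure was tested on simulated counts with known changes and the same spread for all features. That test does not show which changes could be found in these data. The genes, the pathway list and the marker lists were chosen with earlier results of these data known. Named are all 10 genes, pathway genes called in a comparison (those at the FDR alone were added after values were seen, and 1 is not reported here), the 5 genes most like Smpd3, the DHS at the start of Smpd3, called DHSs and Cyp2b10. Coordinates follow RefSeq on GRCm38. The RefSeq promoter table held 8 of the 10 genes and no promoter is shown. Marker sums are over lists of 6 genes (dividing cells 4). Endothelial sums were 331 to 432 CPM, stellate and fibroblast sums 321 to 542 CPM and dividing-cell sums 3.17 to 17.8 CPM per mouse.

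Alternatives were other pseudocounts, filters, scalings, cutoffs, groups in the fit, a distance limit of 10 kb, edgeR, a replicate block and leaving out each mouse.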

Additional observations from a re-analysis of the deposited data

Results flagged for a closer look

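The strain difference in the PB response of Smpd3 RNA, 1.32 on the log2 scale, is listed because the effect of PB differed between the strains, and it is the value that selected the gene. Among 80 sets of mice examined (10 genes in RNA and 10 DHSs of Smpd3, in 4 groups each), 5 held 1 mouse far from the others of its group by Dixon's criterion, and chance gives about 1 in 20. Vehicle-treated B6C3F1 mouse 2 had the lowest Smpd3 RNA of its group, at 1.54 CPM. PB-treated B6C3F1 mouse 3 had the highest Smpd2 RNA, at 29.6 CPM, and the highest Sptlc2 RNA, at 49.9 CPM. PB-treated B6C3F1 mouse 2 had the highest Degs1 RNA, at 100.7 CPM, and the lowest normalized count at the DHS chr8:106280143-106280601, at 352. The same PB-treated mouse 2 also had the lowest Smpd3 RNA of its group, at 20.5 CPM.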

How the results depend on the processing

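The counts of the 9 enzymes called in RNA stayed at 0 in every comparison and setting except with no minimum log2 FC, where 2 passed between strains with vehicle and 1 with PB. With no minimum log2 FC, pathway genes called became 5 for PB in B6C3F1, 2 in C57BL/6, and 3 and 8 between strains with vehicle and with PB. Between strains with vehicle the pathway count was 2 at an FDR of 0.05 and 0 after centring on the sample median, and with PB it was 1 after quantile normalization. Member DHSs called with PB in B6C3F1 became 4 with all 4 groups in the fit and 1 within 10 kb of a start. In C57BL/6 they became 5 with no minimum log2 FC, 5 after quantile normalization, 0 with all 4 groups in the fit and 1 within 10 kb. Between strains with vehicle, member DHSs numbered 11 at an FDR of 0.05, 10 with all 4 groups and 3 within 10 kb, and with PB 4 within 10 kb. Leaving out each mouse gave 1 to 3 and 3 to 5 member DHSs for PB in B6C3F1 and C57BL/6, 0 to 8 and 4 to 11 between strains with vehicle and with PB, and 1 to 2 pathway genes between strains with vehicle and 2 to 4 with PB. Without vehicle-treated B6C3F1 mouse 3, the shallowest library, 3 member DHSs were called for PB in B6C3F1 and 8 between strains with vehicle.

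Samples with the same digit are different animals, and their deviations from group means correlated at -0.14 to 0.05 in RNA and -0.46 to 0.33 in DNase, so the digits do not pair them. With the replicate block, member DHSs called were 1 in B6C3F1 and 5 in C57BL/6 for PB, and 5 between strains with PB. Signs changed for values near 0. Sgms1 with PB in C57BL/6 was -0.0057 after centring on the sample median, and Cers2 between vehicle-treated strains was -0.012 after quantile normalization and -0.0078 after centring. Leaving out each mouse, log2 FC ran from -0.035 to 0.064 for Sgms1 with PB in C57BL/6, -0.013 to 0.082 for Degs1 with PB in B6C3F1 and -0.0046 to 0.058 for the DHS at the start of Smpd3 with PB in C57BL/6, and between vehicle-treated strains from -0.12 to 0.0039 for Sgms1, -0.047 to 0.054 for Asah1 and -0.012 to 0.046 for Cers2. The cause of these changes was not tested. Depth limits the DHSs 71.4 and 78.3 kb into Smpd3 in vehicle-treated B6C3F1 mice, and a larger pseudocount lowers the log2 FC of Smpd3 RNA (3.19 in B6C3F1 and 2.02 in C57BL/6 with 1).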

Other observations

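The PB-treated mice of each strain fell into the same order by Smpd3 RNA as by Cyp2b10 RNA, a pattern noticed after the values were seen. In B6C3F1, from low to high, the order was mouse 2, 4, 5, 1 and 3, with Smpd3 at 20.5, 25.5, 31.2, 33.7 and 35.2 CPM and Cyp2b10 at 1179, 1381, 1634, 1662 and 1737 CPM. In C57BL/6 it was mouse 1, 3, 4, 5 and 2, with Smpd3 at 14.1, 14.7, 14.7, 15.1 and 16.3 CPM and Cyp2b10 at 897, 1063, 1196, 1323 and 1489 CPM. Mice 3 and 4 of C57BL/6 differed in Smpd3 by 370 against 378 reads, which is within counting noise, so their order carries little weight. None of the other 9 enzymes followed the order of Cyp2b10 in both groups. Among all genes 6 of 13837 (0.0434%) did, Smpd3 included, so this does not set the 9 apart. Because the pattern was noticed in Smpd3 first, this share is not support for it. In vehicle-treated mice Smpd3 did not follow the order of Cyp2b10 in either strain. The order is a description of 5 mice per group and was not tested.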
